A study of Mus musculus with 4 samples.

Results

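Open chromatin at the replication-dependent histone genes was described in the P0 mouse hippocampus from 4 lists of ATAC-seq peaks. The members were the protein-coding genes of GENCODE M21 whose symbol begins with Hist1h, Hist2h, Hist3h or Hist4h, which gave 67 of 21938 protein-coding genes. They comprise 6 genes for the linker histone H1, 18 for H2A, 18 for H2B, 12 for H3 and 13 for H4. A further 3 symbols of this form are not annotated as protein-coding and were left out. Of the members, 54 lie on chromosome 13, 10 on chromosome 3, 2 on chromosome 11 and 1 on chromosome 6, and a gap of over 100 kb divides them into 7 groups (GRCm38). The longest, chr13:23531050-23764406, holds 29 members from Hist1h4h to Hist1h1a. The members are short, with a median length of 539 bp against 17425 bp for all protein-coding genes.

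Replication-dependent histones supply the nucleosomes for newly copied DNA, and their genes are transcribed mainly in S phase. Core histones H2A, H2B, H3 and H4 form the nucleosome, whereas H1 binds the linker DNA between nucleosomes. The genes usually lack introns, and their mRNAs end in a conserved stem-loop instead of a poly(A) tail. NPAT, which is phosphorylated by cyclin E and CDK2, gathers at the clusters in the histone locus body, and SLBP binds the stem-loop. Many H2A and H2B genes stand head to head and share the stretch between their start sites. In the newborn hippocampus, neural progenitors and the dentate gyrus still contain dividing cells, beside many neurons that have left the cell cycle.

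The cKO group comprised 2 libraries labelled Kdm2bEmx1-delta-CxxC, in which Emx1-Cre acts on a floxed Kdm2b allele in the dorsal telencephalon to delete the CxxC zinc finger of KDM2B, the part of this Polycomb protein that binds unmethylated CpG-rich DNA. The Ctrl group comprised 2 libraries labelled Kdm2bfl/+ or Kdm2bfl/fl, without saying which library had which genotype. All were taken on postnatal day 0, and cells of the hippocampus that do not derive from Emx1-expressing progenitors keep the floxed allele intact. The labels name neural progenitor cells as the source, while the titles and the protocol name dissected hippocampus. No label says whether libraries of a group came from separate animals, so any p-value covers only the spread between these libraries.

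Promoter sequences that recur in the results are given here in lower case, with the letters of 5 promoter motifs in capitals, searched on both strands. The letters were TATAAA, as in a TATA box, with CCAAT for the CCAAT box. The octamer bound by POU2F1 was searched as ATTTGCAT and the H1 box of linker histone genes as AAACACA. For the E2F letters, TTTCGCGC and also TTTGGCGC were taken. They are the stretch between a divergent pair with strong peaks, the corresponding stretch of the testis pair Hist1h2ba and Hist1h2aa that had no peak, the bases before the start of an H4 gene with a strong peak and of an H4 gene with none, and the bases before an H1 gene. Sequences are from RefSeq GRCm38.p6, 5′ to 3′, on the plus strand for the pairs and on the strand of the gene otherwise.
Hist1h2ac-Hist1h2bc (chr13:23683949-23684198, all 250 bases between the start sites): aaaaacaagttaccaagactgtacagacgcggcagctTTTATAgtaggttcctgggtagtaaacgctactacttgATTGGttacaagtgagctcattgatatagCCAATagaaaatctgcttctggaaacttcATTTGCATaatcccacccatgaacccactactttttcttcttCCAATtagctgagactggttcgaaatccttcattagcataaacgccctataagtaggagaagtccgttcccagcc
Hist1h2ba-Hist1h2aa (chr13:23934157-23934456, the first 300 of 305 bases between the start sites): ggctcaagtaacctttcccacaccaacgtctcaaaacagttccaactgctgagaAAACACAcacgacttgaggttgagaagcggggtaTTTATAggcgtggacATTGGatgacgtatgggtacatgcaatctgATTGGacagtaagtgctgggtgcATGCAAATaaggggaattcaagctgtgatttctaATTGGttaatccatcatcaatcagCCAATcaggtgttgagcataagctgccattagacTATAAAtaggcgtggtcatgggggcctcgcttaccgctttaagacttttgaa
Hist1h4c (chr13:23698455-23698654, minus strand, 200 bases before the start site): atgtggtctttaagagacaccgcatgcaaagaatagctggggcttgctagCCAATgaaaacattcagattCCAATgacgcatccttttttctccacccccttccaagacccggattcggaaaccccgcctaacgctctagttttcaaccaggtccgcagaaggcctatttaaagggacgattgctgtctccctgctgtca
Hist1h4b (chr13:23756813-23757012, plus strand, 200 bases before the start site): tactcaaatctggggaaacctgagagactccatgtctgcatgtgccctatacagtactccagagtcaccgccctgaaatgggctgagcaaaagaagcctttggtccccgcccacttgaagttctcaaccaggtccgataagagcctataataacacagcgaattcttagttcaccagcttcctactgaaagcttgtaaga
Hist1h1e (chr13:23622559-23622758, minus strand, 200 bases before the start site): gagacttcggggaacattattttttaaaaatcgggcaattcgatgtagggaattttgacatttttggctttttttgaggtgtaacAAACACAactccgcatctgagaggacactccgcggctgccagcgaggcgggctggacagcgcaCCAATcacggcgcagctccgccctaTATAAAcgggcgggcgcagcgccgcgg

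The members share the 3′ end that is typical of the family. A stem-loop, defined as arms of 6 complementary bases that start with GG around a loop of 4 bases that starts with TTT, lay within 200 bases after the stop codon of 63 members. It started 22 to 59 bases after the stop codon, with a median of 31. The 3 commonest forms are shown with the arms in capitals, because the arm differs between H4 and the other histones.
Most common form, 41 members, none of them H4: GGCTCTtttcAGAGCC
Next form, 9 members, none of them H4: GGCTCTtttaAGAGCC
H4 form, 8 members, all of them H4: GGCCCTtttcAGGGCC
All 12 H4 genes with a stem-loop had 1 of 3 forms that no other member had, and the other 51 members had the remaining 3 forms. The members without a match were Hist1h2an, Hist1h3g, Hist1h4a and Hist2h2be, which says only that these letters are not in that window.

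The 4 lists held between 7037 and 46389 peaks, and each was called on its own library, so values were compared as ranks within a list. A peak was assigned to a promoter when its summit lay within 2 kb of a transcription start site (TSS). The promoter percentile of a gene says what percentage of all protein-coding genes had a weaker promoter in that list, judged by the −log10 p of each gene's strongest peak, and is 0 without a peak. The libraries are called Ctrl 1, Ctrl 2, cKO 1 and cKO 2 by group and replicate. Ctrl 2 stood apart from the other libraries, with the shortest list, and 60.6% of its peaks lay mostly in repeat-masked sequence against 5.37% to 14.7% in the others, so results that rest on it are given with and without it. Of 12 marker genes of hippocampus and dorsal telencephalon, 10 had a promoter peak in Ctrl 1, none in Ctrl 2, 8 in cKO 1 and 12 in cKO 2. Of 16 markers of other cell types and tissues, 3 had a promoter peak in any list (Dlx2, Pdgfra and Ttr). In bulk tissue a lower level in each cell and fewer cells of a kind cannot be told apart.

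Most histone promoters carried a peak in the 3 longer lists. Promoter peaks were found at 63 of the 67 members in Ctrl 1, where 58.0% of all protein-coding genes had one. The count was 54 in cKO 1 (background 40.3%) and 64 in cKO 2 (background 55.9%). Ctrl 2 had promoter peaks at 11 members, against a background of 8.27%. All 11 of these also had a peak in the other 3 lists, so 11 members had one in all 4 lists, where the background is 8.02%. A further 43 members had a peak in every list but that of Ctrl 2, and 9 had one only in Ctrl 1 and cKO 2. Hist1h1t had a peak in cKO 2 only, and Hist1h4b, Hist1h2ba and Hist1h2aa had none in any list, whereas 39.8% of all protein-coding genes had none.

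The median member lay at a promoter percentile of 79.7 in Ctrl 1, 78.1 in cKO 1 and 81.0 in cKO 2, and at 0 in Ctrl 2. For comparison, the median of the protein-coding genes that had a promoter peak was 70.99 in Ctrl 1, 79.9 in cKO 1 and 72.1 in cKO 2. In Ctrl 1, 51 members were above that median, in cKO 1 the number was 23 and in cKO 2 it was 50. The members thus lay above the typical accessible promoter in the 2 longest lists and about level with it in cKO 1. In Ctrl 2 any gene with a peak had a percentile of at least 91.7, and none of the 11 members with a peak exceeded the 95.6 of the median gene with a peak.

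**Figure D1:**
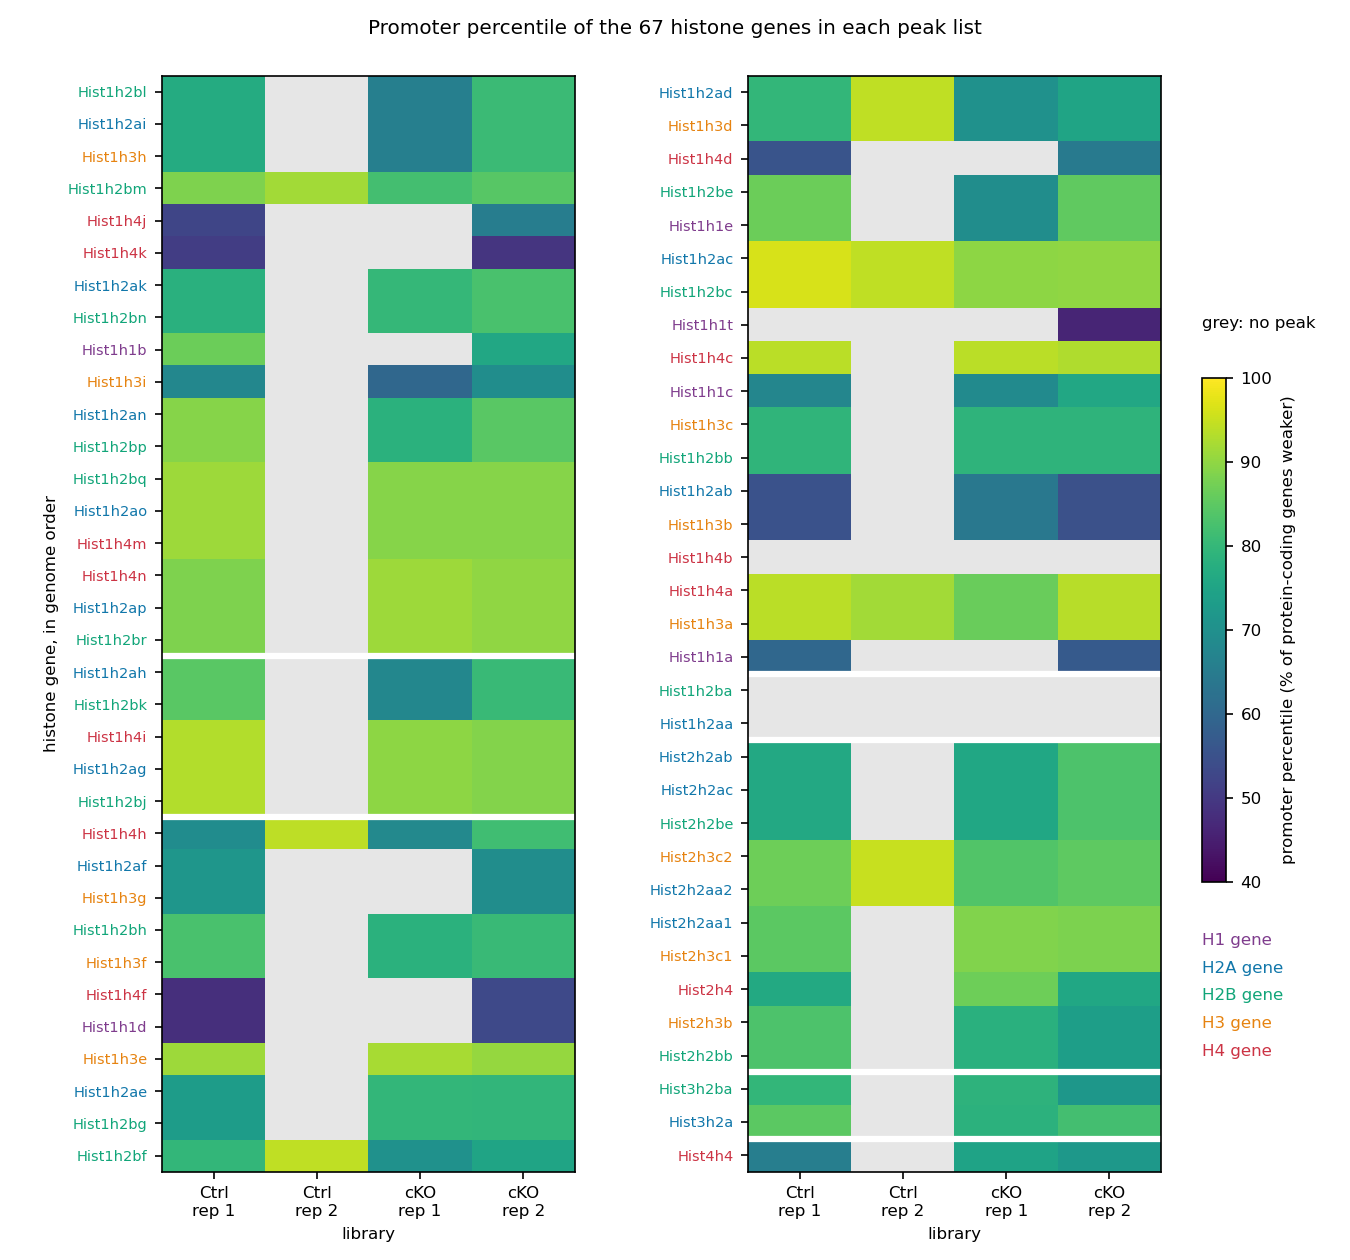
Promoter percentile (colour, in % of protein-coding genes that are weaker) of each of the 67 histone genes (rows, in genome order, names coloured by histone) in each of the 4 libraries (columns). Grey marks a gene with no promoter peak, and white lines divide the 7 groups of genes. The column of Ctrl 2 is grey for 56 members, and Hist1h4b, Hist1h2ba and Hist1h2aa are grey in every column.

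Because the genes are so close together, the members did not have a peak each. The promoter peaks of the members amounted to 45 distinct peaks in Ctrl 1, 6 in Ctrl 2, 34 in cKO 1 and 50 in cKO 2. Of these, 30, 4, 24 and 33, in the same order, lay within 2 kb of the start of at least 2 members, and no peak was shared by more than 3. Members that share a peak therefore have the same percentile and are not independent of each other. Inside the 7 spans, widened by 2 kb at either end, nearly every peak was at a member. These were 45 of 48 peaks in Ctrl 1, 6 of 7 in Ctrl 2, 34 of 36 in cKO 1 and 50 of 54 in cKO 2. Peaks were also dense there, with 10.6 per 100 kb in Ctrl 1 against 1.70 across the genome, and 11.9 against 1.63 in cKO 2. Both the spans and the 2 kb rule follow the members, which favours the count at members by construction. No share over spans of other genes was taken. The other protein-coding genes inside the spans were Hfe, which had no promoter peak in any list, and Trim17, which had one in the 3 longer lists.

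Genes of all 4 core histones were among the strongest peaks. Hist1h3e, an H3 gene, ranked 2187 in cKO 1 and 2172 in cKO 2, ahead of every H2A and H2B gene in both lists, and 1825 in Ctrl 1. Hist1h4c, an H4 gene that stands alone, had its promoter peak at rank 1289 in Ctrl 1, 1708 in cKO 1 and 1575 in cKO 2, with no peak in Ctrl 2. The summit rested on 95, 41 and 78 fragments in these 3 libraries and lay 89, 57 and 49 bp upstream of the TSS, inside the sequence shown above. The corresponding percentiles of 93.8, 93.8 and 92.9 lay within 1 percentile point of each other. The difference of group means, 46.5 with the missing peak taken as 0, had an exact permutation p of 0.667 and was -0.417 without Ctrl 2. Its rank in cKO 1 was the best of any member in that list.

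Hist1h2ac and Hist1h2bc, an H2A and H2B pair that share their promoter, had the best member rank in Ctrl 1 (759), and ranks of 4260, 2859 and 2301 in Ctrl 2, cKO 1 and cKO 2. The peak rested on 115 fragments in Ctrl 1, 17 in Ctrl 2, 36 in cKO 1 and 76 in cKO 2. Percentiles were 96.3 and 94.2 in the Ctrl libraries and 89.8 and 90.0 in the cKO libraries. Both cKO values were below both Ctrl values, but any gene with a peak in Ctrl 2 had at least 91.7 there. Given these cKO values, the comparison with Ctrl 2 was fixed by construction, and the call rests on Ctrl 1. Ctrl averaged 95.3 ± 1.52 and cKO 89.9 ± 0.126, a difference of -5.38 (exact permutation p = 0.33), and of -6.46 without Ctrl 2. At a −log10 q of at least 5, where the Ctrl 2 peak was lost, it was 41.7. In the 3 longer lists the summit was between the TSSs, 121, 156 and 119 bp from that of Hist1h2ac. In Ctrl 2 the summit instead lay 158 bp downstream of the TSS of Hist1h2bc, within the coding sequence.

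The pair of neighbours Hist1h4a and Hist1h3a had the best member rank in cKO 2 (1387), where the summit rested on 104 fragments. The other ranks were 1255 with 121 fragments in Ctrl 1, 6939 with 12 fragments in Ctrl 2 and 4095 with 37 fragments in cKO 1. The percentiles of 93.9 and 91.7 in Ctrl and 86.2 and 93.6 in cKO overlapped between the groups. The summit lay 99 to 232 bp upstream of the TSS of Hist1h4a in all 4 libraries, and it is counted for Hist1h3a because the TSS of that gene is within 2 kb. Hist1h3a also had a weaker peak before its own start codon in Ctrl 1 and cKO 2, with 47 and 35 fragments. The difference of group means was -2.91 (exact permutation p = 0.667). It was -3.98 without Ctrl 2, -1.83 without Ctrl 1, 0.809 without cKO 1 and -6.63 without cKO 2. At a −log10 q of at least 5, where the Ctrl 2 peak was lost, it was 43.0.

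There were 13 divergent pairs, with TSSs 176 to 660 bp apart and a median of 279 bp. Of these, 12 join an H2A to an H2B gene, and the remaining one joins Hist1h2bh to Hist1h3f, an H3 gene. The 2 genes of a pair had the same strongest peak in 12 of 13 pairs in Ctrl 1, cKO 1 and cKO 2, and in 2 of 13 in Ctrl 2. The pair without a shared peak was the testis pair Hist1h2ba and Hist1h2aa, which had no peak at all. The summit of the shared peak lay between the TSSs in 10, 9 and 10 of those 12 pairs in Ctrl 1, cKO 1 and cKO 2. Among 723 other divergent pairs of protein-coding genes, 679, 583 and 676 shared their strongest peak in these 3 libraries, and 204 in Ctrl 2. A 2 kb window around TSSs at most 1 kb apart favours sharing by construction. The summit lay between the TSSs in 68.2%, 67.8% and 69.2% of the other pairs that shared a peak in Ctrl 1, cKO 1 and cKO 2. With 12 histone pairs no difference from the other pairs was tested. Both shared histone peaks in Ctrl 2, at Hist1h2ac with Hist1h2bc and at Hist1h2bf with Hist1h2ad, had summits outside the stretch between the TSSs.

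In 8 pairs the summit lay between the TSSs in all 3 of these libraries, and its position varied over them by 20 to 109 bp, with a median of 38 bp. For Hist1h2ag and Hist1h2bj the summit lay 139 bp, 169 bp and 143 bp from the TSS of Hist1h2ag in Ctrl 1, cKO 1 and cKO 2. The shared peak of this pair ranked 1444, 2859 and 2583, with 95, 36 and 71 fragments. The widest shift within the stretch was at Hist1h2ak and Hist1h2bn, with summits 56 bp, 45 bp and 154 bp from the TSS of Hist1h2ak.

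The remaining 4 pairs with a shared peak were less regular. At Hist1h2bl and Hist1h2ai the summit lay at 190 bp in Ctrl 1 and 191 bp in cKO 2 from the TSS of Hist1h2bl, but in cKO 1 the strongest peak was a different one, at 1463 bp, next to the start of Hist1h3h. At Hist1h2ah and Hist1h2bk the summit of cKO 1 lay 143 bp inside Hist1h2bk, with 15 fragments, against positions between the TSSs in Ctrl 1 and cKO 2. At Hist1h2bh and Hist1h3f only cKO 1 had its strongest summit between the TSSs, and those of Ctrl 1 and cKO 2 lay 430 bp and 373 bp downstream of the TSS of Hist1h3f. For Hist2h2ac and Hist2h2be the strongest peak was the one at the start of Hist2h2ab, 1006 bp, 1130 bp and 1040 bp downstream of the TSS of Hist2h2ac. In Ctrl 1 that peak was 1831 bp wide and covered the stretch between the TSSs. In cKO 2 a weaker peak with 16 fragments had its summit in the stretch.

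**Figure D2:**
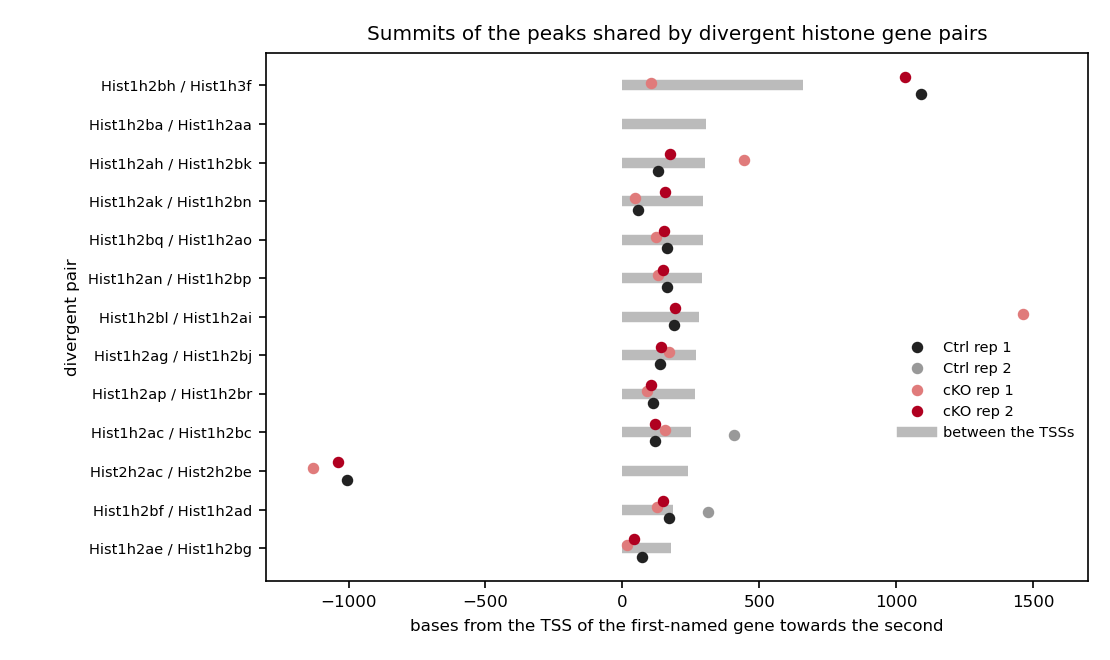
Position of the summit of the peak shared by each of the 13 divergent pairs (rows, by the distance between TSSs), in bases from the TSS of the first-named gene towards the second, with 1 point per library where the pair shared a peak. Grey bars span the distance between the TSSs, and the summits of Ctrl 1, cKO 1 and cKO 2 fall on the bar in 10, 9 and 10 pairs.

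All 12 H3 genes had a promoter peak in Ctrl 1 and in cKO 2, 11 in cKO 1 and 3 in Ctrl 2. Hist1h3e, which has a peak of its own, had percentiles of 91.3, 92.0 and 90.5 in Ctrl 1, cKO 1 and cKO 2, with 84, 40 and 78 fragments. Several others are counted through the stronger peak of a neighbour. The summit counted for Hist1h3d lay between -1441 and -1254 bp from its TSS in the 4 libraries, and that for Hist1h3c between -1029 and -860 bp in 3, where minus is upstream. Within 500 bp of the start codon, a summit was found for 9, 7 and 9 H3 genes in Ctrl 1, cKO 1 and cKO 2. The start codon itself lay inside a peak for 12, 6 and 10 H3 genes in the same order.

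Of the 13 H4 genes, 12 had a promoter peak in Ctrl 1, 2 in Ctrl 2, 8 in cKO 1 and 12 in cKO 2. A summit within 500 bp of the start codon was found for 11, 2, 4 and 11 H4 genes in the same order. Hist1h4j, Hist1h4k, Hist1h4f and Hist1h4d had no peak in cKO 1. Their percentiles were low in the 2 longest lists, from 48.1 to 55.5 in Ctrl 1 and from 49.2 to 65.5 in cKO 2, with 16 to 31 fragments at the summits. The H4 genes, whose proteins are nearly identical, thus ranged from strong promoter peaks, as at Hist1h4c and Hist1h4a, to no called peak at Hist1h4b. Hist1h4h had a peak in all 4 lists, with percentiles of 69.2 and 94.1 in Ctrl and 68.3 and 81.6 in cKO, and the groups overlapped, with a difference of means of -6.73 (exact permutation p = 0.667). The difference was 5.70 without Ctrl 2, -19.2 without Ctrl 1, -0.098 without cKO 1 and -13.4 without cKO 2. At a −log10 q of at least 5, where the Ctrl 2 peak was lost, it was 40.3.

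At the H1 genes many of the peaks lay away from the start codon. Ctrl 1 had promoter peaks at 5 of the 6 H1 genes, cKO 1 at 2, cKO 2 at all 6 and Ctrl 2 at none. A summit within 500 bp of the start codon was found for 2, 1 and 3 of them in the first 3 of these libraries. In contrast, 16, 14 and 17 of the 18 H2A genes had one in Ctrl 1, cKO 1 and cKO 2, and 15, 15 and 16 of the 18 H2B genes. These counts are a description and were not tested.

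Several H1 peaks lay past the end of the coding sequence. For Hist1h1b the only peak within 2 kb of the TSS was 413 bp beyond the stop codon in Ctrl 1, with 74 fragments, and 426 bp beyond it in cKO 2, with 44 fragments. For Hist1h1e the strongest peak was 608, 694 and 638 bp beyond the stop codon in Ctrl 1, cKO 1 and cKO 2, with 72, 16 and 60 fragments. A weaker peak at the start codon of Hist1h1e had its summit 7 bp upstream of it in cKO 1 and 29 bp upstream in cKO 2, with 13 and 26 fragments. In Ctrl 1 the strongest peak of Hist1h1e was 1723 bp wide and also covered its start codon. Hist1h1c had summits on both sides, at its start codon in Ctrl 1 and cKO 2 and 296 to 361 bp beyond the stop codon in 3 libraries. The start codon of Hist1h1a had summits 13 bp downstream in Ctrl 1 and 47 bp upstream in cKO 2, with 39 and 22 fragments. Hist1h1d had 28 fragments at 420 bp beyond the stop codon in Ctrl 1 and 28 at 470 bp in cKO 2, and its counted promoter peak belongs to Hist1h4f.

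Annotation bears on 2 of these genes. The annotated TSS of Hist1h1d lies 1828 bp before its start codon, and that of Hist1h2be, an H2B gene, 35138 bp before its start codon, inside Hist1h1e. The promoter peak counted for Hist1h2be, with percentiles of 86.6, 69.5 and 85.2 in Ctrl 1, cKO 1 and cKO 2, is therefore the one in Hist1h1e past its stop codon. At its own start codon Hist1h2be had summits 36 bp upstream, 53 bp downstream and 38 bp upstream in the same libraries, with 45, 10 and 34 fragments. Hist1h1t, the testis linker histone, had no peak at its start, and its single peak, at +1869 bp with 15 fragments in cKO 2, lies inside the 3′ part of Hist1h4c.

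**Figure D3:**
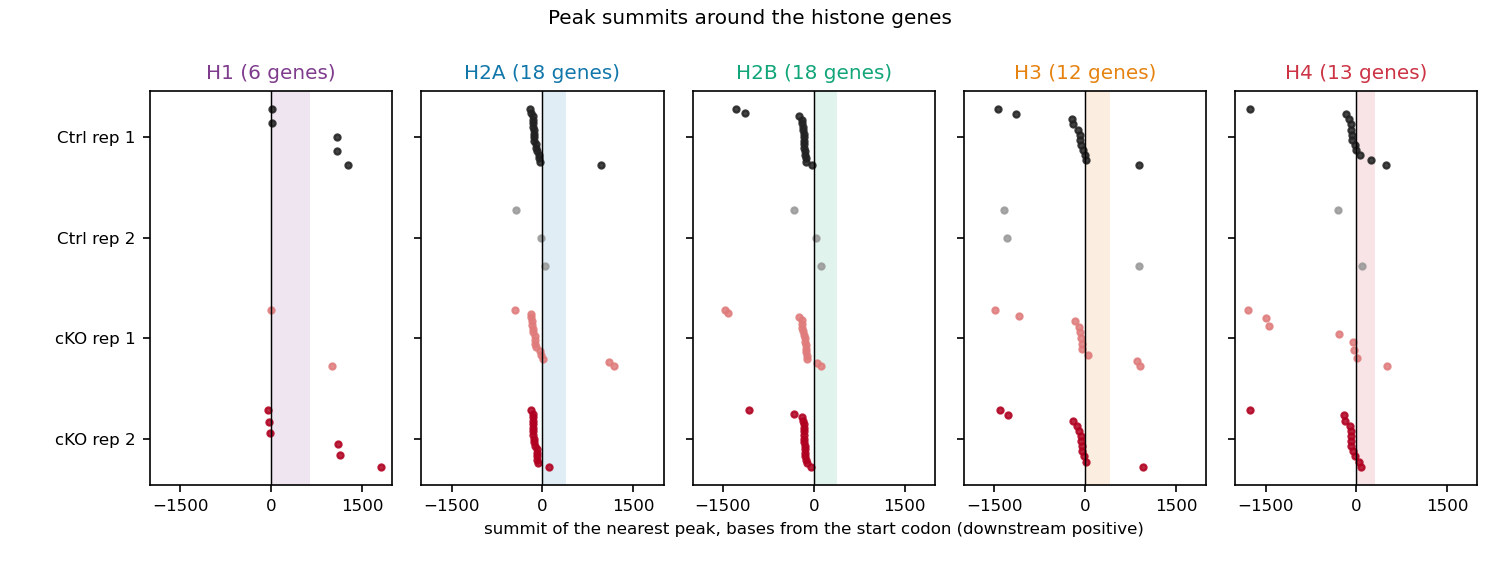
Summit of the peak nearest to the start codon of each histone gene (points), in bases from the start codon with downstream positive, by histone (panels) and library (rows), for genes with a summit within 2 kb. The shaded band is the median length of the coding sequence. Points of H2A and H2B genes gather just upstream of the start codon, and points of H1 genes lie at the start codon or beyond the band.

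Outside the cluster on chromosome 13, the 10 members on chromosome 3 all had promoter peaks in the 3 longer lists, with percentiles from 73.6 to 88.6. Hist2h2aa2 and Hist2h2aa1 are both H2A genes. In Ctrl 2 a summit with 20 fragments lay 4 bp downstream of the TSS of Hist2h2aa2, and no peak was called at Hist2h2aa1. Of the windows of 72 bases before their TSSs, 78.2% and 77.1% occur more than once in the genome. A peak at either gene therefore cannot be assigned to that copy with certainty. In the other libraries Hist2h2aa2 had 83, 30 and 69 fragments and Hist2h2aa1 77, 36 and 77, in the order Ctrl 1, cKO 1 and cKO 2. On chromosome 11, Hist3h2ba and Hist3h2a had separate peaks, with percentiles of 79.8 and 84.8 in Ctrl 1, 78.7 for both in cKO 1, and 71.7 and 82.0 in cKO 2. Hist4h4, the single member on chromosome 6, had percentiles of 65.7, 74.8 and 71.9 with 37, 21 and 42 fragments, and neither chromosome had a peak at a member in Ctrl 2. The differences of means were 35.3 for Hist3h2ba, 37.9 for Hist3h2a and 40.5 for Hist4h4, with exact permutation p of 1, 1 and 0.33. Without Ctrl 2 they were -4.62, -4.45 and 7.65, and without Ctrl 1 they were 75.2, 80.3 and 73.4. With lists of equal size they were -39.9, -1.39 and 0, each with an exact permutation p of 1, so that Hist4h4 was no longer higher.

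No promoter peak was called in any list at Hist1h4b, Hist1h2ba and Hist1h2aa. The last 2 encode the testis-specific H2B and H2A. They form a divergent pair whose TSSs are 306 bp apart, like the pairs with strong peaks, and their shared stretch holds the letters TATAAA, those of the CCAAT box, the octamer and the H1 box, as shown above. Hist1h4b had none of the 5 motifs in the 200 bases printed. This was not particular to a gene without a peak. From 250 bases before to 50 after the TSS, Hist1h4h, Hist4h4, Hist1h3f and Hist1h4f also had none, with peaks in 4, 3, 3 and 2 lists. The shallowest peak of any kind had 7 fragments in Ctrl 1, 12 in Ctrl 2, 9 in cKO 1 and 8 in cKO 2, so a missing peak says only that nothing at this depth was called, and does not show that the chromatin was closed.

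The promoters shared sequence features that were not used to choose the genes. In the window from 250 bases before to 50 after the TSS, CCAAT occurred in 56 members (83.6%) against 37.2% of all protein-coding genes. It was present in all 18 H2A and all 18 H2B genes, and in 4 of 13 H4 genes. TATAAA occurred anywhere in the window, on either strand, in 37 members (55.2% against 13.4%), and starting 50 to 20 bases before the TSS on the gene's strand, where a TATA box lies, in 10 (14.9% against 2.81%). The octamer occurred over the window in 15 (22.4% against 1.74%), the E2F letters in 9 (13.4% against 0.948%) and the H1 box in 9 (13.4% against 6.55%). The octamer was found in 7 H2A and 8 H2B genes and in no other member, and 4 of the 6 H1 genes had the H1 box. Paired genes share these letters, so the counts are not independent, and a match is a description and not a binding site.

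Most members also had promoters rich in CpG. In the 500 bp around the TSS, 52 members (77.6%) had a GC content of at least 50% with an observed over expected CpG ratio of at least 0.6, against 46.3% of all protein-coding genes. The median ratio was 0.932 for the members and 0.560 for all genes, while the median GC content was 53.6% and 57.2%. All 13 H4 genes met the criteria, including Hist1h4b, which had no peak. Among CpG-rich genes, 89.8% of all genes and 96.2% of the members had a promoter peak in Ctrl 1, 66.4% and 80.8% in cKO 1, and 87.5% and 96.2% in cKO 2. Among the 15 members that did not meet them, 13, 12 and 14 had a promoter peak in these libraries (86.7%, 80.0% and 93.3%), against 30.6%, 17.7% and 28.6% of all such genes. Members often share a peak with a neighbour, as given above, and the part of this sharing in these percentages was not tested.

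**Figure D4:**
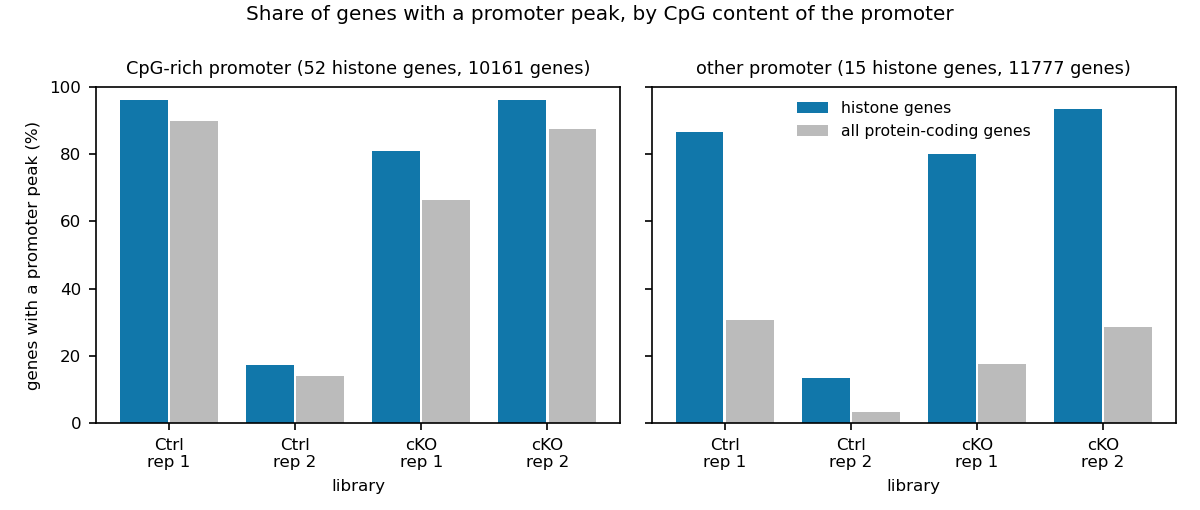
Percentage of genes with a promoter peak in each library, for the histone genes (blue bars) and for all protein-coding genes (grey bars), in genes with a CpG-rich promoter (left) and in the others (right). In Ctrl 1 the bars are 96.2% and 89.8% on the left and 86.7% and 30.6% on the right.

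The coding sequences of the members resemble each other so closely that short reads cannot always be placed. Of the windows of 72 bases, the length of the trimmed reads, a median of 68.5% per coding sequence occurred more than once in the genome, and 59 members had at least 1 such window. Promoters were more distinct, and 56 members had no repeated window in the 250 bases before the TSS. Of the other 11, 6 had only repeated windows there, namely Hist1h2bq, Hist1h2ao and Hist1h4m and their counterparts Hist1h2br, Hist1h2ap and Hist1h4n. Hist1h2bq and Hist1h2br were identical over all 250 bases, as were Hist1h4m and Hist1h4n. At Hist2h3c2, Hist2h2aa2, Hist2h2aa1 and Hist2h3c1 the repeated share was 89.4%, 78.2%, 77.1% and 97.8%. Peaks at these genes cannot be assigned to a single copy with certainty.

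Repeated sequence lay under a minority of the summits in the 3 longer lists. The 72 windows that cover the summit included a repeated one for 9 of 45 member peaks in Ctrl 1, 8 of 34 in cKO 1 and 11 of 50 in cKO 2. The count was 5 of 6 in Ctrl 2. Of those 6 summits, 4 lay within a member's coding sequence, at Hist1h2ad, Hist1h2bc, Hist1h4h and Hist1h2bm, against 5 of 45, 4 of 34 and 4 of 50 in the other libraries. Upstream of the nearest member TSS lay 1 of the 6 summits in Ctrl 2, and 33 of 45, 24 of 34 and 38 of 50 in the others.

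The depth of the member peaks also differed between libraries. The median member peak rested on 58 fragments in Ctrl 1, 17 in Ctrl 2, 24.5 in cKO 1 and 43.5 in cKO 2. The median over all promoter peaks was 32, 20, 22 and 31 in the same order. Member peaks were deeper than the typical promoter peak in Ctrl 1 and cKO 2, and shallower in Ctrl 2, where the 6 peaks had 12 to 20 fragments and the lowest depth in the whole list was 12. Member peaks had a median width of 748, 274, 530 and 623 bp, against 640, 340, 456 and 596 bp for all promoter peaks.

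**Figure D5:**
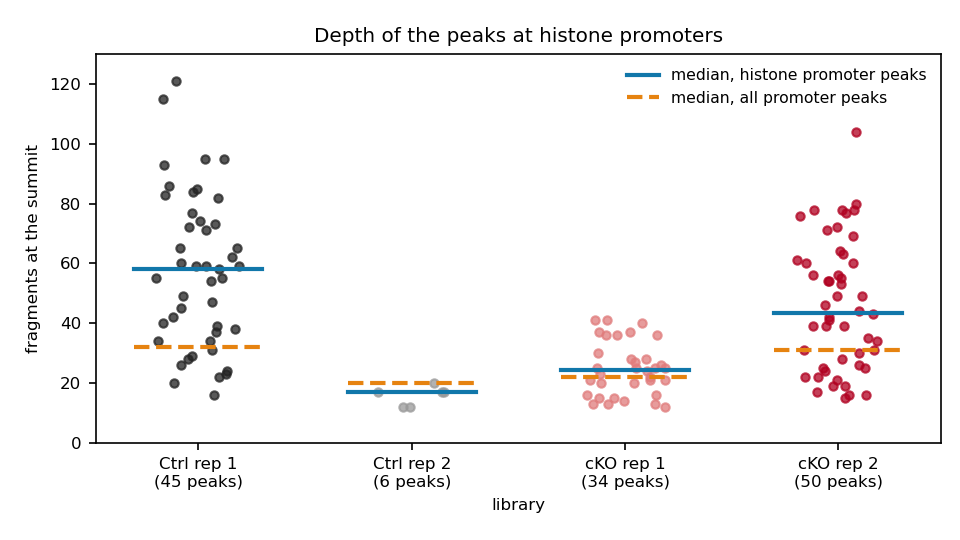
Fragments at the summit of each peak at a histone promoter (points) in each library, with the median of these peaks (blue line) and of all promoter peaks (orange dashed line). The 45 points of Ctrl 1 have a median of 58 against 32, and the 6 points of Ctrl 2 have a median of 17 against 20.

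The comparison of cKO with Ctrl asks whether histone promoters differ in accessibility once KDM2B lacks the domain that binds CpG-rich DNA. The mean number of members with a promoter peak was 59 ± 7.07 (SD, n = 2 libraries) in cKO and 37 ± 36.8 in Ctrl, and the median member percentile was 79.6 ± 2.03 in cKO and 39.8 ± 56.3 in Ctrl. The difference of 22 members is smaller than the spread between the Ctrl libraries. It is -4 without Ctrl 2 and 48 without Ctrl 1. Likewise, the difference in the median percentile is 39.7, with -0.12 without Ctrl 2 and 79.6 without Ctrl 1. With lists of equal size the differences are 5.5 members and 0.659. With 2 libraries per group an exact permutation test has 6 assignments and cannot give a two-sided p below 0.33, so no difference can pass a threshold of 0.05.

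Of the 64 members with a peak in at least 1 list, 11 had a higher percentile in both cKO libraries than in both Ctrl libraries (17.2%), against 20.5% of all protein-coding genes with a peak. A lower percentile in both cKO libraries was found for 8 members (12.5%), against 2.80%. None of the 11 had a peak in Ctrl 2 and all 8 had one. By construction a gene without a peak there, at percentile 0, cannot be lower than both Ctrl libraries. A gene with one has at least 91.7 there. All cKO percentiles of the 8 were below that, so their call rests on Ctrl 1. Set against Ctrl 1 alone, both cKO libraries were above it for the same 11 members (background 23.8%) and below it for 35 members (54.7%, background 36.6%), which include the 8. The backgrounds above belong to the main setting and to Ctrl 1 alone. No share over all genes was taken in the settings that follow, so their counts cannot be set against other genes. The counts moved with the processing, to 20 higher and 3 lower when peaks were ranked by fold and to 2 lower at a −log10 q of at least 5. They were 43 higher and 9 lower without Ctrl 1, 23 higher and 8 lower without cKO 1, and 0 higher when only genes with a peak in all 4 lists were ranked. Without Ctrl 1, a gene with a peak in both cKO lists and none in Ctrl 2 is higher by construction. Members with the same peaks count once in 37 units, of which 6 were above and 19 below Ctrl 1. Other genes were not grouped in this way, so the unit counts have no background.

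Among members whose groups did not overlap, the largest differences downwards were at Hist1h2bf, Hist1h2ad and Hist1h3d, an H2B, an H2A and an H3 gene that share 1 peak. Their percentiles were 79.7 and 94.2 in Ctrl and 70.4 and 75.2 in cKO, with 73, 17, 22 and 54 fragments at the summit. The difference of means was -14.1, from 86.9 ± 10.3 in Ctrl to 72.8 ± 3.33 in cKO (exact permutation p = 0.33). It was -6.89 without Ctrl 2 and -21.4 without Ctrl 1. With all lists cut to equal size it was -86.9, and in a 1 kb window it was -1.65 for Hist1h3d. Among peaks with a −log10 q of at least 5, where the Ctrl 2 peak was lost, it was 33.0. Ranked by fold it was -13.6 and the groups overlapped (exact permutation p = 1). Hist1h2bm, an H2B gene, had percentiles of 88.4 and 91.7 in Ctrl and 82.1 and 84.5 in cKO, a difference of -6.74, and Hist2h2aa2 with Hist2h3c2 had 86.7 and 94.9 against 83.6 and 85.1, a difference of -6.43 (exact permutation p = 0.33 for each). Without Ctrl 2 the differences were -5.07 for Hist1h2bm and -2.34 for Hist2h2aa2 with Hist2h3c2, and without Ctrl 1 the latter was -10.5. At a −log10 q of at least 5, where Hist1h2bm lost its Ctrl 2 peak, its difference was 39.1. In a 1 kb window that of Hist2h3c2 turned to 32.7. Ranked by fold, Hist2h2aa2 with Hist2h3c2 had a difference of -5.71 and overlapping groups (exact permutation p = 1). In Ctrl 2 any gene with a peak had at least 91.7, above all the cKO percentiles given here, so these calls rest on Ctrl 1. Peaks at Hist2h2aa2 and Hist2h3c2 also cannot be assigned to a single copy with certainty, as given above. None of the downward differences passed the test.

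Among members whose groups did not overlap, the largest differences upwards were at Hist1h4n, Hist1h2ap and Hist1h2br, an H4, an H2A and an H2B gene with 1 shared peak. Their percentile was 88.5 in Ctrl 1, 91.3 in cKO 1 and 90.1 in cKO 2, with 86, 41 and 80 fragments and no peak in Ctrl 2. The difference of 46.4 (44.3 ± 62.6 in Ctrl, 90.7 ± 0.806 in cKO, exact permutation p = 0.33) was 2.19 without Ctrl 2 and 90.7 without Ctrl 1. In a 1 kb window it turned to -4.76 for Hist1h4n. Hist2h2aa1 and Hist2h3c1 had 84.9, 88.6 and 88.2 in the same order and a difference of 45.9, which was 3.49 without Ctrl 2, 88.4 without Ctrl 1 and, for Hist2h3c1, 0.506 in a 1 kb window. The counterparts Hist1h2bq, Hist1h2ao and Hist1h4m had 91.3, 89.2 and 89.1 in the same order. Here the cKO values were below Ctrl 1, where those of Hist1h4n, Hist1h2ap and Hist1h2br were above it. All windows before the TSSs of these 6 genes were repeated, so peaks cannot be assigned to a single copy. The 2 directions are therefore not shown to be a difference between genes. At Hist2h2aa1 and Hist2h3c1, 77.1% and 97.8% of these windows were repeated. Across the 54 members with a peak in the 3 longer lists, the percentile varied over these lists by a median of 7.11 points and at most 17.1.

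All 17 genes listed as factors of histone transcription and mRNA processing had a promoter peak in Ctrl 1, cKO 1 and cKO 2, and 5 had one in Ctrl 2, where the background over all protein-coding genes is 58.0%, 40.3%, 55.9% and 8.27%. Npat, the coactivator of the clusters, had percentiles of 98.7 and 99.8 in Ctrl and 97.9 and 98.1 in cKO, higher than every member in all 4 lists. Slbp, which encodes the stem-loop binding protein, had 91.2 and 95.3 in Ctrl and 90.3 and 94.4 in cKO, and Casp8ap2, a component of the histone locus body, 98.0, 95.6, 96.9 and 95.8 in the same order. Among the 17, 3 were higher in both cKO libraries (Zfp473, Ccne1 and Ccne2) and 1, Npat, was lower, where the background is 20.5% higher and 2.80% lower. The 3 higher genes had no peak in Ctrl 2, and neither did 9 others, so 12 of the 17 could not be called lower. Against Ctrl 1 alone, both cKO libraries were above it for the same 3 genes and below it for 5 (Npat, Casp8ap2, Lsm10, Srrt and Cpsf2), with backgrounds of 23.8% and 36.6%. Zfp473, which acts in the processing of histone mRNA, had 90.4 in Ctrl 1 and 92.9 and 92.8 in cKO, with no peak in Ctrl 2.

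Variant histones, most of which are made throughout the cell cycle from genes elsewhere in the genome, had promoter peaks at 10, 3, 8 and 11 of 11 genes in Ctrl 1, Ctrl 2, cKO 1 and cKO 2, against 58.0%, 8.27%, 40.3% and 55.9% of all protein-coding genes. H2afz, H2afx and H3f3b had one in all 4 lists, and H2afv, an H2A.Z gene, had percentiles of 98.2, 98.3 and 99.1 in the 3 longer lists. Of the 10 genes of the cell cycle, 10, 0, 8 and 9 had a promoter peak in the same order, against the same background, with Mcm5, a subunit of the replicative helicase, at 98.3, 97.9 and 93.7 in the 3 longer lists and Tyms, thymidylate synthase, with a peak only in Ctrl 1. Of the 11 variant genes 4 were higher in both cKO libraries (H2afv, H2afy2, H2afj and Cenpa) and 1, H3f3b, was lower, against the same background of 20.5% and 2.80%. Of the 10 cell cycle genes 2 were higher (Mcm2 and Rrm2), and none could be called lower, since none had a peak in Ctrl 2. The 4 higher variant genes also had no peak there, while H3f3b had one. Its cKO percentiles of 89.3 and 90.8 were below the 91.7 that any peak in Ctrl 2 gives at least. Against Ctrl 1 alone, 4 variant genes were above it and 1 below it in both cKO libraries, and 2 cell cycle genes were above it and 6 below it (Mki67, Pcna, Mcm5, Tyms, Ccna2 and Ccnb1), with backgrounds of 23.8% and 36.6%.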

How the data were processed

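ATAC-seq libraries of P0 hippocampal nuclei, 2 cKO and 2 Ctrl, were grouped by their titles. According to the study's methods and the submitters' processing notes, the authors cut paired reads to 72 bases with Cutadapt, mapped them with Bowtie2 to mm10, removed blacklist regions, mitochondrial reads and duplicates, shifted reads for the Tn5 cut, and ran MACS2 (2.2.7.1) on the fragments of each library without pooling. A filter on mapping quality was not given in the sources used here. The deposited lists hold, per peak, a fold enrichment (a ratio to local background), −log10 p-values, −log10 q-values and a display score, all made by the authors; the score was not used. From fold and −log10 p-value, whole fragment depths were recovered within 0.01. Peaks were placed at TSSs of the basic set of GENCODE M21 and ranked within a list, since folds and p-values do not share a scale between lists. The members and gene lists were chosen with earlier results of these data known. Named members are the 12 with the highest mean percentile, up to 5 in each direction with the largest difference among those whose groups did not overlap, those with no peak, those outside chromosomes 13 and 3, and others chosen after their values were seen as examples of position or rank. The exact permutation test was run on every member, and 23 named members were followed through the alternatives. Counts and medians over members have no test. Scripts were tested on simulated data and used Python 3.11.15, numpy 2.4.6, pandas 2.3.3, scipy 1.17.1, pysam 0.24.0 and samtools 1.23.1. Alternatives changed the window, the placing, the threshold, the list length, the TSSs, the ranking, repeats, replicates and the genes ranked.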

Additional observations from a re-analysis of the deposited data

How the results depend on the processing

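The groups of 2 limit every comparison. Leaving out each replicate in turn moved the difference (cKO minus Ctrl) in members with a promoter peak from -4 to 48 and that in the median percentile from -0.12 to 79.6, with -4 and -0.12 without Ctrl replicate 2. Members higher in cKO then numbered 11 to 43, the latter without Ctrl replicate 1, and members lower 8 to 35, the latter without Ctrl replicate 2. Without Ctrl replicate 2 the backgrounds over all genes with a peak are 23.8% higher and 36.6% lower. Without another library no such share was taken. With equal-size lists, 47 and 11 members in Ctrl and 27 and 42 in cKO had a promoter peak, and the difference in the median percentile was 0.659. Peaks with a −log10 q of at least 5 left 2 members with a peak in Ctrl replicate 2 and 2 lower members. Ranking by fold gave 20 higher and 3 lower members, and no share over all genes was taken in that setting. Ranking only genes with a peak in all 4 lists gave a median difference of -10.7 and 0 higher members. In these settings the cause was not tested, beyond the fewer peaks or genes that each keeps by construction. Summits within 500 bases of a start codon, an alternative chosen after seeing the data, gave 53, 8, 41 and 56 members with a peak. Shares over all genes were taken only with full lists and the 2 kb window. The counts near start codons and with equal-size lists therefore have no background.

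With a replicate block, the median percentile differed by -1.55 within replicate 1 and by 81.0 within replicate 2. These average to the same 39.7 (exact permutation within numbers, smallest p 0.5). Deviations of same-numbered libraries correlated by 0.053 over 13196 genes. With 2 libraries per group this cannot show whether same-numbered samples share more than a number. Signs of single genes turned as follows, at a −log10 q of at least 5 only where the Ctrl replicate 2 peak was lost. At a −log10 q of at least 5 the differences were 39.1 for Hist1h2bm, 40.3 for Hist1h4h, 33.0 for Hist1h2bf, Hist1h2ad and Hist1h3d, 41.7 for Hist1h2ac and Hist1h2bc, and 43.0 for Hist1h4a and Hist1h3a. In the 1 kb window they were -4.76 for Hist1h4n and 32.7 for Hist2h3c2, and near the start codon -2.92 and 40.02. With equal-size lists they were -39.9 for Hist3h2ba and -1.39 for Hist3h2a, and among genes with a peak in all lists 7.78 for Hist1h4a and Hist1h3a. With a replicate left out, Hist1h4h ranged from -19.2 to 5.7, Hist1h4c from -0.417 to 93.3, Hist3h2ba from -4.62 to 75.2, Hist3h2a from -4.45 to 80.3, and Hist1h4a with Hist1h3a from -6.63 to 0.809. With genes lacking a peak at their mid-rank, the difference of Hist1h4n, Hist1h2ap and Hist1h2br was 23.5. No alternative gave an exact p below 0.33.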
